A study of Mus musculus with 4 samples.

Results

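The regions described here are 888 sites of the transcription factor FoxP3 in mouse T cells carrying FoxP3 alone that had no FoxP3 peak in cells also carrying GATA1. Each coincides with a site of RNA polymerase II (Pol II), mapped in a separate culture that is labelled as carrying FoxP3 and GATA1. They were chosen from peak lists, the stretches of genome enriched by chromatin immunoprecipitation with sequencing (ChIP-seq). A member is a peak of the FoxP3 alone list that shares no base with any peak of the FoxP3 and GATA1 list and at least 1 bp with a Pol II peak. The FoxP3 alone list held 5069 peaks, so the 888 members made up 17.5% of it. In that list 1895 peaks (37.4%) were absent from the other FoxP3 list and 3420 (67.5%) lay at Pol II. The members were 46.9% of the former and 26.0% of the latter. The rule used these overlaps, so the counts describe the choice and have no test.

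All cells were primary CD4+ conventional T (Tconv) cells from lymph nodes of C57BL/6 mice aged 6-8 weeks, activated with beads against CD3 and CD28 in medium with recombinant human IL-2. One group received FLAG-FoxP3 and another FLAG-FoxP3 with GATA1, and FoxP3 was precipitated from both through its FLAG tag (clone M2). The Pol II precipitation (N20 antibody) is labelled as coming from cells with FLAG-FoxP3 and GATA1, while its description names only activated CD4 cells. The control was a whole cell extract, labelled as carrying no transduced factor and without an antibody, and every group had 1 library. The FoxP3 and GATA1 list held 9011 peaks and the Pol II list 17632. FoxP3 in these cells was introduced, so its level need not be that of a natural regulatory T cell, and no anti-FLAG precipitation from cells without the tag was among the samples. With 1 library per group no difference between the lists has a replicate check, and no test across samples was possible. Read counts are not part of the lists, and the depth behind each peak is therefore unknown.

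FoxP3 is a forkhead transcription factor that marks regulatory T cells and is needed for their suppressive function. It works in complexes with other transcription factors, and GATA proteins, zinc-finger factors that recognise a short GATA motif, are among its known partners. GATA1 itself is best known from red blood cell, megakaryocyte and mast cell development, while T cells normally use its relative GATA3. Pol II gathers at the start sites of genes that are transcribed or poised, so a Pol II peak is commonly read as a sign of an active promoter. Regions are given here by position and not by gene, because no gene annotation of a matching build was used. Positions are those of the deposited lists with a first base of 1. Their build is uncertain: mm8 is named in the submitters' processing notes, yet Pol II peaks on chromosome 7 reached 152430305, beyond the known length of that chromosome in mm8.

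Members scored somewhat lower than the FoxP3 alone list as a whole. Each peak carries a deposited score from the authors' peak caller, in which a higher value stands for a stronger call within that list. The members ran from 72.77 to 2049.85, with a median of 389 and quartiles of 341 and 475, against a median of 425 over the whole FoxP3 alone list. Scores under 500 were held by 80.9% of members, 68.7% of the whole list and 54.2% of shared sites at Pol II. FoxP3 alone peaks off Pol II that were also absent from the other list scored lower still, with a median of 368 and 90.9% under 500. Very low scores were rare throughout: 13 members (1.46%) and 98 peaks of the whole list (1.93%) scored under 200. At the upper end 13 members scored 800 or more, and no member reached the top value of 3100 that 25 peaks of the list share.

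Absence from the FoxP3 and GATA1 list was most frequent at the lower scores. Among FoxP3 alone peaks at Pol II split into 5 equal classes by score, the members' share was 37.9% (95% Wilson interval 34.3 to 41.6) in the lowest class. It was 39.6% (36.0 to 43.3), 26.6% and 17.5% in the next 3, and 8.19% (6.36 to 10.5) in the highest. These intervals, like all those given here, cover counting over peaks only and not the variation between cultures. The 2 lowest classes, up to a score of 418, thus did not differ beyond their intervals, and the share fell above them. The share also depends on the length of the other list. When the FoxP3 and GATA1 list was reduced to its 5069 highest-scoring peaks, 1460 peaks met the rule, or 42.7% of those at Pol II.

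Narrow peaks were less often members than peaks of middle width. Of 841 peaks at Pol II narrower than 450 bp, 94 were members, or 11.2% (9.22 to 13.5). Of 1039 peaks of 550 to 650 bp, 406 were members, or 39.1% (36.2 to 42.1), and above 650 bp the share was 26.0%. In the class of lowest scores the narrow peaks gave 3 members of 51 (5.88%, 2.02 to 15.9) and those of 550 to 650 bp gave 174 of 347 (50.1%, 44.9 to 55.4). In the second class narrow peaks gave 29 of 111 (26.1%, 18.9 to 35.0), against 39.6% over all widths in that class. Those of 550 to 650 bp gave 130 of 279 (46.6%, 40.8 to 52.5). In the class second from the top the highest share lay in peaks over 650 bp, with 62 of 194 (32.0%), while narrow peaks gave 21 of 237 (8.86%). The narrow peaks had the lowest share in each of the 5 score classes, though by less than the intervals in some of them. The median width was 582.5 bp for members, with quartiles of 532 and 643 bp, and 546 bp for the shared FoxP3 alone peaks at Pol II, with quartiles of 425 and 643 bp. The width pattern was not particular to peaks at Pol II. Off Pol II, 15.7% of the absent peaks and 25.9% of the shared ones were narrower than 450 bp. Widths of 550 to 650 bp were held by 43.0% and 30.2% of them.

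**Figure D1:**
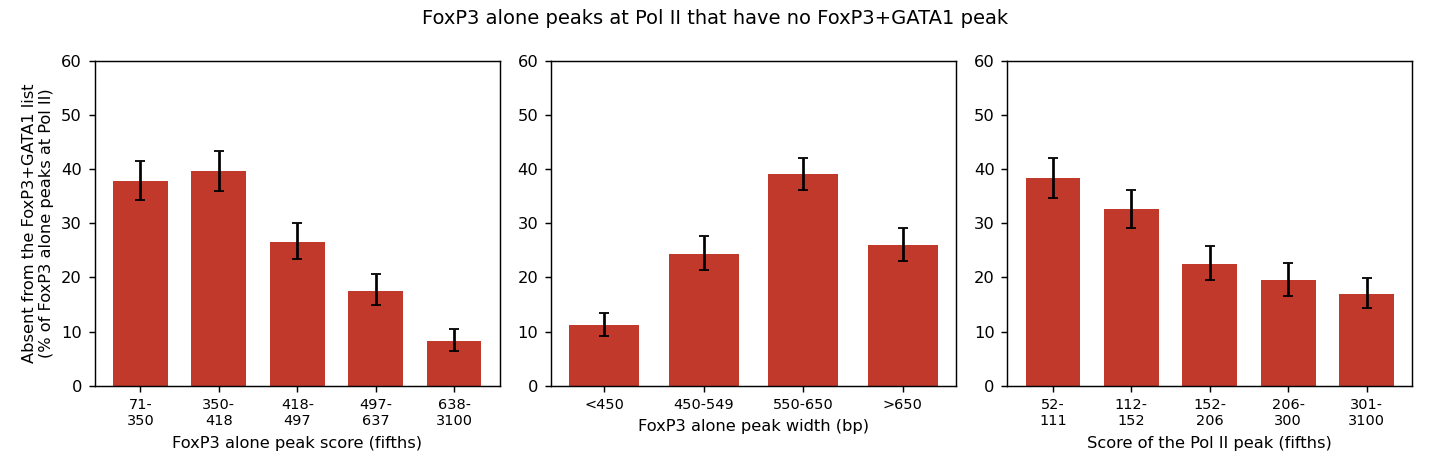
Share of FoxP3 alone peaks at Pol II that have no FoxP3 and GATA1 peak, by 5 equal classes of the FoxP3 alone score (left), by peak width in bp (middle) and by 5 equal classes of the score of the overlapped Pol II peak (right); bars show percent of peaks and lines 95% Wilson intervals. The share falls to 8.19% in the highest FoxP3 class, is highest at widths of 550 to 650 bp (39.1%), and falls from 38.3% to 17.0% along the Pol II score.

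The strongest member lay at chr17:4995054-4996861, scored 2049.85 and ranked 43 in the FoxP3 alone list. It was also the widest, at 1808 bp, and all but 1 of its bases lay inside a Pol II peak of 2974 bp with a score of 831, which ranked 77 of the 17632 Pol II peaks. The nearest FoxP3 and GATA1 peak was 54519 bp away and scored 134. The region was thus among the highest in both the FoxP3 alone and the Pol II list and had no FoxP3 and GATA1 peak within 50 kb.

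The other high-scoring members were very unequal in their Pol II signal. At chr4:116549549-116550854 the FoxP3 score was 1202 over a Pol II peak of 257. At chr5:43624945-43626143 it was 1019, and the Pol II peak scored 387 with its centre only 9 bp away. These 2 regions lay 6668 and 19260 bp from a FoxP3 and GATA1 peak, and the one on chromosome 5 faced a strong one with a score of 582. By contrast, the members at chr10:84652087-84652308 and chr6:134516294-134517289, with FoxP3 scores of 1043 and 977, overlapped Pol II peaks of only 98.76 and 99.2. The chromosome 10 member was 222 bp wide, 1 of 3 members narrower than 350 bp, and lay wholly inside its Pol II peak.

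The remaining 5 of the 10 highest had scores of 863 to 962 and Pol II scores of 113 to 287. They lay at chr9:75473009-75474130, chr14:18167623-18168131, chr8:91565910-91566781, chr11:95877333-95878134 and chr16:18581740-18582654. The gap to the nearest FoxP3 and GATA1 peak ran from 30519 bp on chromosome 8 to 537158 bp on chromosome 14. On chromosome 8 and on chromosome 16 (42504 bp) it was below the median of 65739.5 bp over all members. All 10 sat on a single Pol II peak.

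A different set of members came first when ordered by Pol II. The highest Pol II score under a member was 865, at chr6:3150620-3151836, where the FoxP3 alone score was only 111. That member was also 1 of the 5 widest, at 1217 bp, and lay wholly inside the Pol II peak. The strongest member on chromosome 17 came next. The member at chr8:86520639-86521297 (score 649) lay 784 bp from the centre of a 2145 bp Pol II peak of score 789, the largest offset of any member. The same Pol II peak held a FoxP3 and GATA1 peak 548 bp further on, with a score of 226. Other members near an end of a strong Pol II peak were chr8:73223356-73224015 (586.5 bp from the centre), chr5:25003707-25004269 (661.5 bp), chr13:112597939-112598530 (460.5 bp) and chr4:8617096-8617953 (393 bp).

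Members also lay near the centre of strong Pol II peaks. Those at chr9:94437796-94438392, chr14:76814328-76815031 and chr12:73861981-73862612 were 44, 57.5 and 63 bp from the centres of Pol II peaks of 1586 to 2011 bp, with Pol II scores of 627 to 716. Their FoxP3 scores were 417, 604 and 512. None of these 3 Pol II peaks held a FoxP3 and GATA1 peak, and the nearest ones were 45051 to 211610 bp away.

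Across all members the Pol II peak had a lower median score than under shared sites and a higher one than where no FoxP3 was found. The median Pol II score was 143 under members (95% interval of the median 137 to 149.91). It was 188 (182 to 193) under FoxP3 alone peaks shared with the other list and 135 (132 to 139) under peaks found only with GATA1. Pol II peaks without FoxP3 had a median of 107. A Pol II score under 100 was found for 194 members, or 21.8% (19.3 to 24.7), against 11.5% of shared sites and 24.4% of sites only with GATA1. A score over 300 was found for 13.2%, 22.5% and 8.11%, in that order. These comparisons are within the Pol II list, which the rule used only for overlap, and they have no replicate check. They were not matched for the FoxP3 score.

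**Figure D2:**
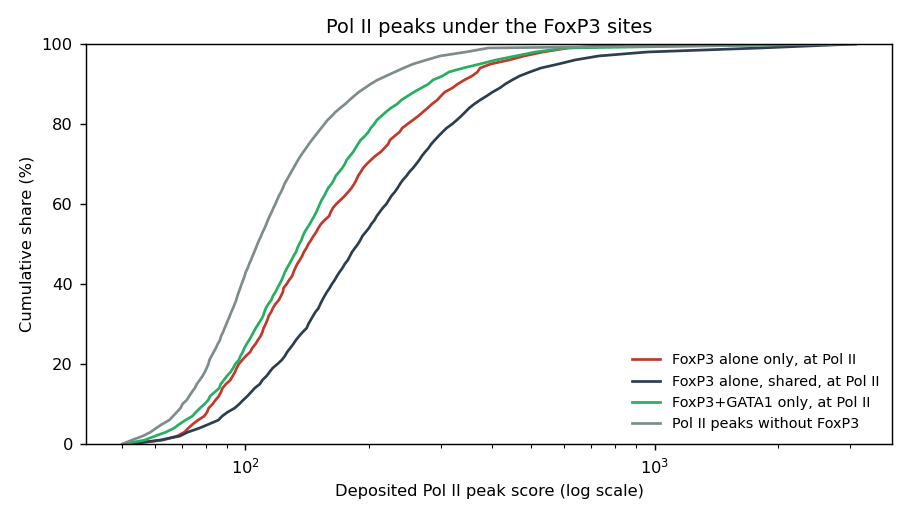
Cumulative share (percent) of sites or peaks by the deposited Pol II score on a log axis, for the members (FoxP3 alone only, at Pol II), shared FoxP3 alone sites at Pol II, sites found only with GATA1 at Pol II, and Pol II peaks without FoxP3. The members' curve, with a median of 143, lies between the curve of Pol II peaks without FoxP3 (107) and that of the shared sites (188).

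Compared with those under the other FoxP3 sites at Pol II, the members' Pol II peaks were not narrow. Their median width was 685 bp (668 to 706), close to the 674 bp under shared sites (659 to 686) and wider than the 609 bp under sites only with GATA1 (600 to 626). Pol II peaks wider than 1000 bp lay under 19.0% of members (16.6 to 21.7), 13.4% of shared sites (12.2 to 14.8) and 10.3% of sites only with GATA1 (8.99 to 11.7). Over all Pol II peaks the median width was 608 bp. A wide peak is overlapped more easily, so width enters any share that counts overlaps.

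The FoxP3 score followed the Pol II score less closely among members than among shared sites. Spearman's rho between them was 0.23 over the 888 members and 0.46 over 2532 shared sites. The members span a narrower range of FoxP3 scores, and both scores were called against the same extract. Between FoxP3 score and distance from the Pol II centre rho was -0.05 over members.

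Members sat further from the centre of their Pol II peak than shared sites did. The median distance between the 2 centres was 104 bp (95 to 113) for members, 79.75 bp (75.5 to 83.5) for shared sites and 94.5 bp (89.5 to 101) for sites only with GATA1. The sets differed most in the tail. A distance over 200 bp was found for 25.1% of members (22.4 to 28.1), 11.5% of shared sites (10.3 to 12.8) and 18.2% of sites only with GATA1 (16.6 to 20.0). Beyond 400 bp the shares were 7.32%, 1.03% and 3.39%. Among FoxP3 alone peaks at Pol II in 5 equal classes by this distance, the members' share was 21.8% to 23.1% in the 4 nearer classes. It was 40.6% (37.0 to 44.4) in the class at 172.5 to 784 bp.

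The shift from shared sites was present at like score and over Pol II peaks of like width. Between the members' own score quartiles, 341 and 475, the median distance was 107.5 bp for 444 members and 77.5 bp for 821 shared sites. Over Pol II peaks of up to 600 bp it was 84.0 bp for members and 65.5 bp for shared sites, over 600 and up to 1000 bp it was 106.5 and 86.5 bp, and over 1000 bp it was 159 and 109 bp. In the same order, sites only with GATA1 had 84.25 bp (78.5 to 92), 93.5 bp (87.5 to 102) and 173 bp (145.5 to 201.5). The members' intervals were 73 to 92, 95 to 122 and 125 to 204.5 bp. The medians of members and of sites only with GATA1 thus did not differ beyond their intervals in any width class. Their 95th percentiles, members first, were 322 and 326 bp over Pol II peaks of up to 600 bp. They were 456 and 301 bp over 600 and up to 1000 bp, and 573 and 541 bp over 1000 bp. Within the same score range the median Pol II score was 142 (135 to 155) under members and 163 (156 to 170) under shared sites. The upper quartiles were 226 and 231. The 95th percentiles were 446 and 387, so the order of the medians did not hold in the upper tail.

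**Figure D3:**
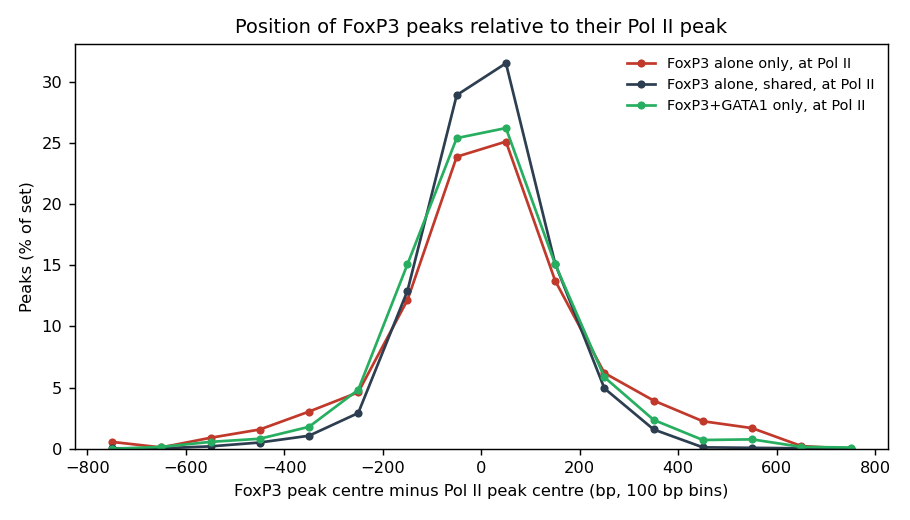
Distance in bp from the centre of the Pol II peak to the centre of the FoxP3 peak, in bins of 100 bp, as percent of the members, of shared FoxP3 alone sites and of sites found only with GATA1. The curves centre on 0, and 25.1% of members lie over 200 bp away, against 11.5% of shared sites.

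The lists carry no strand, so sides are given by coordinate only. The member's centre lay at the higher coordinate in 472 of 888 cases, or 53.2% (49.9 to 56.4). Most members still lay on the Pol II peak proper: the centre was inside it for 823 members, or 92.7%, and the median member had 93.5% of its bases within the Pol II peak. By arrangement, 330 members lay wholly inside, 82 held a whole Pol II peak and 476 overlapped 1 end. Wholly inside were 37.2% of members (34.0 to 40.4) and 44.9% of shared sites (43.0 to 46.9). A second Pol II peak was touched by 8 members, among them chr13:48965424-48966590, the last of the 5 widest at 1167 bp with a score of 691.

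A few members barely met the rule. The least overlap with Pol II was 11 bp, at chr11:77297036-77297623, followed by 24 bp at chr5:28492409-28493002, 52 bp at chr4:133309398-133310037, 63 bp at chr7:13609711-13610302 and 76 bp at chr1:88254830-88255428. Just outside, 5 peaks absent from the FoxP3 and GATA1 list missed a Pol II peak by 20 to 83 bp. They lay at chr3:122687819-122688395, chr11:97489426-97490143, chr19:23430985-23431481, chr9:51572974-51573758 and chr2:59626340-59626776. On the other criterion, the nearest members were 32 bp from a FoxP3 and GATA1 peak, and the shared sites at Pol II with the least overlap had 8 to 51 bp in common with one.

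The nearest FoxP3 and GATA1 peak was mostly far away, and few members lay beside one. The median gap was 65739.5 bp (58781 to 74938), with quartiles of 25994 and 141339 bp. A FoxP3 and GATA1 peak lay within 500 bp of 16 members (1.80%, 1.11 to 2.91), within 1000 bp of 24 (2.70%) and within 10000 bp of 109 (12.3%). With the FoxP3 and GATA1 list at the length of the FoxP3 alone list the median gap became 130680 bp. FoxP3 alone peaks that lay off Pol II and were also absent from the other list had a median gap of 76431 bp (69355 to 82694), and 0.596% (0.273 to 1.29) of them had a peak within 500 bp.

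**Figure D4:**
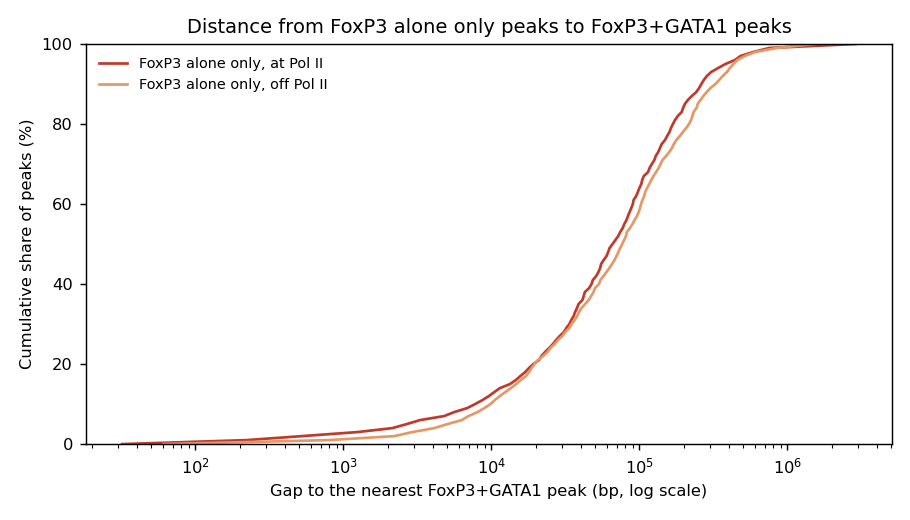
Cumulative share (percent) of FoxP3 alone only peaks by the gap in bp, on a log axis, to the nearest FoxP3 and GATA1 peak, for those at Pol II (the members) and those off Pol II. The median is 65739.5 bp for members and 76431 bp for the peaks off Pol II, and few of either lie within 1000 bp.

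The members with the smallest gaps lay beside a FoxP3 and GATA1 peak, mostly on the same Pol II peak. At chr14:119537575-119538163 (score 340) the gap was 32 bp, and at chr13:58502761-58503344 (score 375) it was 43 bp. The next were chr2:116946582-116947148 (59 bp), chr14:103381538-103382160 (73 bp) and chr3:55987423-55988013 (84 bp). Over all members the median score of the nearest FoxP3 and GATA1 peak was 191, against 195 in that list. The facing peaks of these 5 members scored 113 to 193. In 4 of these 5 cases the facing peak overlapped the same Pol II peak, the exception being the one on chromosome 13.

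At the far end were members in stretches without FoxP3 and GATA1 peaks. The largest gap was 2892498 bp, at chr7:13609711-13610302 (score 340.28). At chr17:3114485-3115147 and chr17:3248866-3249252, with scores of 440.17 and 480, the gaps were 1291931 and 1157826 bp to the same peak. The others lay at chr6:42274532-42275122 and chr16:15887325-15887931, with gaps of 1138073 and 1089880 bp. Their Pol II scores ran from 88.33 to 215.

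In all, 14 of the 888 members lay on a Pol II peak that also held a FoxP3 and GATA1 peak (1.58%, 0.941 to 2.63). Over the whole Pol II list 25.5% of peaks held one, but the rule had already removed any FoxP3 and GATA1 peak on the member's own bases, which left a median of 211 bp of the Pol II peak. No such case was found among 331 members on Pol II peaks of up to 600 bp. There were 4 among 388 members on those of over 600 and up to 1000 bp, and 10 among 169 on wider ones (5.92%, 3.25 to 10.5). The 14 Pol II peaks had a median width of 1531.5 bp and a median score of 441, against 681 bp and 142 for the other members. The gap within them was 32 to 548 bp. The FoxP3 alone scores of these 14 were 264 to 649, and those of the nearest FoxP3 and GATA1 peaks 132 to 295. Only 5 members shared a Pol II peak with another FoxP3 alone peak.

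For the 821 shared sites at Pol II with FoxP3 alone scores between 341 and 475, the overlapping FoxP3 and GATA1 peak had a median score of 218 (quartiles 173 and 286). A partner under 100 was found for 6 of them (0.731%, 0.335 to 1.59). Scores that low were rare in the FoxP3 and GATA1 list as a whole, with 212 of 9011 peaks (2.35%), and these sites were chosen for having a called partner. The members have no such partner by the rule, and what signal the FoxP3 and GATA1 library held under them was not analysed here.

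By mean count, the Pol II surroundings of the members were denser than those of shared sites and less dense than those of Pol II peaks without FoxP3. Within 50 kb of the centre, members had on average 1.503 further Pol II peaks, shared sites 1.19, sites only with GATA1 1.37 and Pol II peaks without FoxP3 2.01. The median was 1 in each of these sets. No further Pol II peak was found within that distance for 35.7% of members and 44.6% of shared sites. FoxP3 and GATA1 peaks were sparse around sites of each kind: 58.4% of members, 62.2% of shared sites and 61.3% of sites only with GATA1 had no other one within 50 kb.

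Members lay near one another about as often as their share of the list would give. Of 315 FoxP3 alone peaks counted within 50 kb of a member, 54 were members (17.1%), against 17.5% of the list. These 54 members formed 27 pairs and no larger group. In 23 of the pairs no FoxP3 and GATA1 peak lay between the members, but no pair spanned more than 50371 bp. The median gap from a member to such a peak was 65739.5 bp, and other pairs of FoxP3 alone peaks were not counted in this way. In 2 cases both members lay on 1 Pol II peak. At chr19:6427699-6428348 and chr19:6428454-6429049, with scores of 316 and 292, they lay across both ends of a Pol II peak of 874 bp and score 226. At chr5:109123004-109123568 and chr5:109123721-109124286, with scores of 383 and 285, they did so on a Pol II peak of 704 bp and score 124. Neither Pol II peak held a FoxP3 and GATA1 peak.

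By chromosome, the members' share was highest on chromosome 11. Of 228 FoxP3 alone peaks at Pol II there, 87 were members, or 38.2% (32.1 to 44.6), against 26.0% over all chromosomes. Chromosome 11 held 9.80% of members, 5.57% of shared sites at Pol II and 8.50% of all Pol II peaks. The gap was wider in peaks at or below the median score of 454: there 68 of 125 on chromosome 11 were members (54.4%, 45.7 to 62.9) and 553 of 1585 elsewhere (34.9%, 32.6 to 37.3). Above it the shares were 18.4% (12.1 to 27.02) and 15.4% (13.7 to 17.3). Members on chromosome 11 also had more Pol II peaks around them, a mean of 2.43 further ones within 50 kb against 1.403 on the other chromosomes. They made up 7 of the 27 pairs. These counts were made for members only, not for shared sites or other Pol II peaks on chromosome 11. The part of Pol II density in the members' share was not tested. Chromosome 11 was singled out after the values of all chromosomes were seen.

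**Figure D5:**
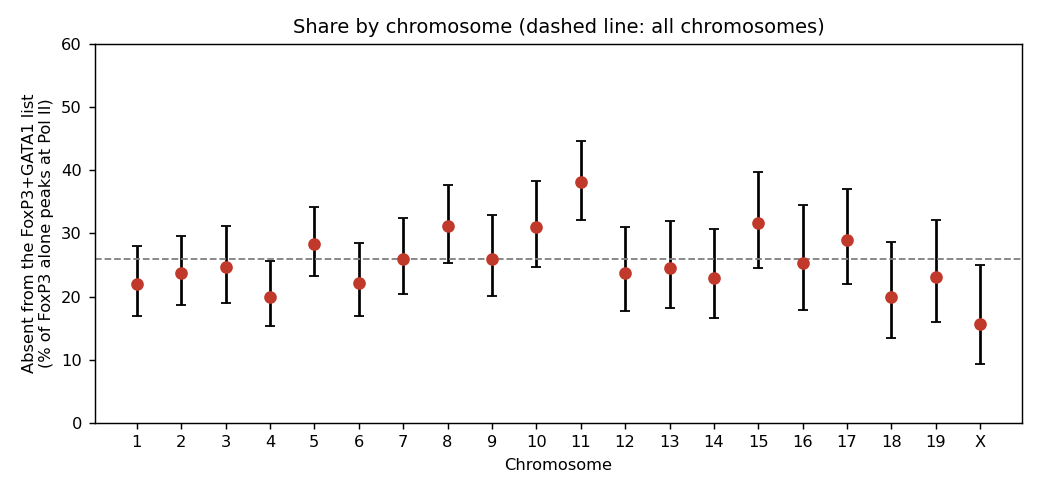
Share (percent) of FoxP3 alone peaks at Pol II that have no FoxP3 and GATA1 peak, by chromosome, with 95% Wilson intervals; the dashed line is the share over all chromosomes, 26.0%. Chromosome 11 is highest at 38.2% and chromosome X lowest at 15.7%.

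The other chromosomes ranged from 15.7% on chromosome X (13 of 83, 9.39 to 24.98) to 31.7% on chromosome 15 (44 of 139, 24.5 to 39.8), and the intervals of chromosomes 4 and X alone lay below the overall share. On chromosome Y, neither of the 2 FoxP3 alone peaks lay at Pol II. The median member score was between 371 and 457 on each chromosome with members, and the median Pol II score under members between 128 and 194. Chromosome 11 had the lowest median member score, 371, and a median Pol II score of 134.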

How the data were processed

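ChIP-seq peak lists of 3 libraries were used: FLAG in FoxP3 alone cells, FLAG in FoxP3 and GATA1 cells, and Pol II. The reads of the fourth sample, the whole cell extract, were not analysed here. MACS 1.4.0rc2, Bowtie and FastQC are the tools that the submitters' processing notes name, with mm8 as the build and no threshold. The authors deposited 1 list per library, not pooled, called over the extract by the naming of the lists. The deposited score depends on library depth and was compared only within a list. Overlaps, gaps and centre distances were computed with scipy 1.17.1, pandas 2.3.3 and numpy 2.4.6 under Python 3.11.15. The member count equalled that of bedtools 2.31.1, and the code was tested on simulated data. Where a peak met several Pol II peaks, the one with most shared bases was used. Shares have Wilson intervals and medians order-statistic intervals, all at 95%. Named regions are the 10 members highest by FoxP3 score and by Pol II score, the 5 widest, the 5 with the smallest and largest gaps and the least Pol II overlap, the 5 just off Pol II, and Pol II peaks with 2 members. The members and lists were chosen with earlier results of these data known. On 8 of 21 chromosomes some peaks lay beyond every gene that the GRCm38.p6 table lists, so that table and its promoter sequences were not used, and the planned gene lists were not run. Alternatives varied the overlap, the Pol II score, list length, a margin, the sex chromosomes, merging and peak width.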

Additional observations from a re-analysis of the deposited data

How the results depend on the processing

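With 1 library per group no result has a replicate check, and the read depth, which sets list length and scores, is not known. No paired analysis was possible because there was a single library in every group. Of 7 alternatives, that with FoxP3 alone peaks of 450 bp or more was chosen after seeing the data. With the FoxP3 and GATA1 list at the length of the FoxP3 alone list, which removes possible partners, the members numbered 1460, or 42.7% of FoxP3 alone peaks at Pol II, the median gap to a FoxP3 and GATA1 peak was 130680 bp, 0.548% lay on a Pol II peak with a FoxP3 and GATA1 peak, and the median centre distance was 92.25 bp. With Pol II peaks of score 100 or more, members were 23.6% of those at Pol II, and their Pol II peaks had a median score of 170.3 and a median width of 760.0 bp. This setting removes the lowest Pol II scores, so the higher median score follows from the setting itself. Pol II score and width rose together over members (Spearman's rho 0.68). Members were 30.8% of FoxP3 alone peaks at Pol II of 450 bp or more. The share on a Pol II peak with a FoxP3 and GATA1 peak was 4.47% under a required overlap of 50% of the shorter peak, which admits sites with small overlaps, and 0.229% without members within 500 bp of a FoxP3 and GATA1 peak. The other values stayed within the interval of the reported one, and the other counts, 695 to 884, within 1.5 times the 888 reported.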
